A study of Homo sapiens with 4 samples.

Results

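The 39 genes described here encode aminoacyl-tRNA synthetases of the cytosol and of mitochondria, with the scaffold proteins of the cytosolic multisynthetase complex. They were chosen by gene family, and each gene was represented by the probe set selected on its measured mean signal over the 4 arrays. Of the 39 genes, 37 had a probe set that names no other gene, and all 37 passed the brightness minimum that left 10823 genes of 18239 in all. They comprised 19 cytosolic and 16 mitochondrial synthetases, the threonyl-tRNA synthetase paralogue TARS3 and the scaffold gene AIMP1. AIMP2 and EEF1E1, which encode the other scaffold proteins, had no probe set with a single symbol in the annotation used and are not analysed here. The family and its split into cytosolic and mitochondrial enzymes were picked with earlier results of these arrays known, so the differences below are descriptions.

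RNA of 2 human mantle cell lymphoma lines, REC-1 and Z138, was hybridised to Affymetrix arrays. The 4 groups, each of 1 array, were REC-1 given CC-292 for 48 h, REC-1 control at 48 h, Z138 given CC-292 for 48 h, and Z138 control, for which no time is stated. CC-292 inhibits Bruton tyrosine kinase (BTK), the kinase that passes on the signal of the B-cell receptor. The treatment protocol states 1 uM and the titles of the treated arrays 1 mM, and no vehicle is named for the controls. Each line is an established culture of 1 tumour, and no other line was measured.

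On every array the 7 B-cell markers with a probe set, among them MS4A1, CD79A and PAX5, reached the brightness minimum, as did the lymphoma markers CCND1 and SOX11, whereas CD5 stayed below it on all 4. None of 7 myeloid markers reached it, and 0 to 3 of 9 T and NK cell markers did. In Z138 the only such marker was CD3G, at 6.07 with CC-292 and 5.96 in the control. On the REC-1 CC-292 array CD3D, CD8A and CD4 read 4.81, 4.81 and 4.65. HBB, the only erythroid marker with a probe set, read 4.85 to 4.95 on the 4 arrays, close above the minimum of 4.63. Median signals were 4.63 to 4.64 on all arrays. The difference between the 3' and 5' probe sets of ACTB, which reads RNA integrity, was 0.53 on the REC-1 CC-292 array and 0.77 on the REC-1 control array. In Z138 it was 1.11 with CC-292 and 1.12 in the control. The same reading of GAPDH was -0.31 on the REC-1 CC-292 array and -0.32 on the REC-1 control array, and in Z138 -0.24 with CC-292 and -0.28 in the control.

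Each synthetase joins 1 amino acid to its tRNA and so supplies the ribosome with charged tRNA. Cytosolic and mitochondrial ribosomes draw on separate enzymes, encoded by separate nuclear genes in most cases. EPRS1 is a fusion that charges both glutamate and proline tRNAs, GARS1 and KARS1 serve both compartments, and mitochondrial glutaminyl-tRNA is made from glutamyl-tRNA by an amidotransferase. Several cytosolic synthetases form a large complex around AIMP1, AIMP2 and EEF1E1. In amino-acid or endoplasmic reticulum stress the transcription factor ATF4 is known to raise most, but not all, cytosolic synthetase genes, acting at C/EBP-ATF elements. The tryptophanyl enzyme WARS1 is also induced by interferon.

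The promoters of known ATF4-target synthetases are shown first, because these genes and their fellow cytosolic enzymes are set against each other in the results. RefSeq windows (GRCh38.p14) from 250 bases before to 50 bases after each transcription start were found for 33 of the 39 genes. The core TGATGNAA was searched on both strands, as were the 3 other motifs named below, and none of these motifs contains another. It was present for 7 of 10 known ATF4-target synthetases with a window, 0 of the 6 other cytosolic synthetases and 1 of 14 mitochondrial ones (7.14%). Of all 27305 genes with a window, 4.46% held it. The 8 matches are printed in the direction of transcription with 10 bases on either side, and capitals mark the core, which reads TTGCATCA or TTTCATCA where it lies on the opposite strand.
AARS1 (chr16:70289676-70289703, minus strand): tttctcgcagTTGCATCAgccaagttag
CARS1 (chr11:3057408-3057435, minus strand): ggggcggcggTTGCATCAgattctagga
GARS1 (chr7:30594835-30594862, plus strand): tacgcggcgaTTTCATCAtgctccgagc
IARS1 (chr9:92293693-92293720, minus strand): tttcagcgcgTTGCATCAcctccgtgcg
MARS1 (chr12:57488054-57488081, plus strand): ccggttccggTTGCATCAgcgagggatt
NARS1 (chr18:57621805-57621832, minus strand): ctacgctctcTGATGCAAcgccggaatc
TARS1 (chr5:33440957-33440984, plus strand): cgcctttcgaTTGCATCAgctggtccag
YARS2 (chr12:32756077-32756104, minus strand): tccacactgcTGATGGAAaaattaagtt

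Of the 7 cytosolic matches, 6 had the letters TGATGCAA on one strand or the other, whereas GARS1 has TTTCATCA and the mitochondrial YARS2 has TGATGGAA. Some genes, such as GARS1 and TARS1, had more than 1 annotated start, and a gene was counted if any of its windows held a motif. Counted in bases from the annotated start whose window holds it, the core began at -2 in CARS1, -4 in MARS1, -13 in IARS1 and -33 in GARS1. It began at 2 in TARS1 and at 14 in NARS1, after the start, and farther upstream at -187 in AARS1 and -197 in YARS2. The ETS core CGGAAG was held by 10 of 16 cytosolic and 9 of 14 mitochondrial genes, against 22.6% of all genes. The NRF1 core GCGCANGCG was held by 3 of 16 cytosolic and 3 of 14 mitochondrial genes, against 9.02% of all genes. The E-box CACGTG, the MYC recognition letters, was held by 1 of 16 and 3 of 14, against 8.77%. A match describes letters only, and binding was not measured.

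In REC-1, most cytosolic synthetase genes had a lower signal on the CC-292 array than on the control array, while mitochondrial synthetase genes lay to either side of 0. Of 19 cytosolic genes 15 were below 0, with a median log2 difference of -0.20 (quartiles -0.41 and -0.02). After quantile normalization or cyclic loess 13 of 19 were below 0, against 53.4% and 51.1% of all genes in these settings. Of 16 mitochondrial genes 9 were below 0, with a median of -0.06. Over all genes 57.8% were below 0 in the deposited values, with a median of -0.05. The differences were small: 0 of 19 cytosolic and 2 of 16 mitochondrial genes, HARS2 and PARS2, differed by at least 1.5-fold (0.58 on the log2 scale), against 9.05% of all genes. With 1 array per group, no test of a single line is possible, and the SD over a gene's probe sets is given as its spread. That SD holds no culture or array error. For genes with 1 usable probe set the pooled SD over all genes applies, which was 0.31 for REC-1, 0.25 for Z138 and 0.48 between controls, so a difference under these values lies within probe-set spread. The ACTB reading differed between the REC-1 arrays while the GAPDH readings lay close together, as given above, and their part in these values was not tested. In bulk RNA, fewer cells of a type and less RNA per cell cannot be told apart.

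**Figure D1:**
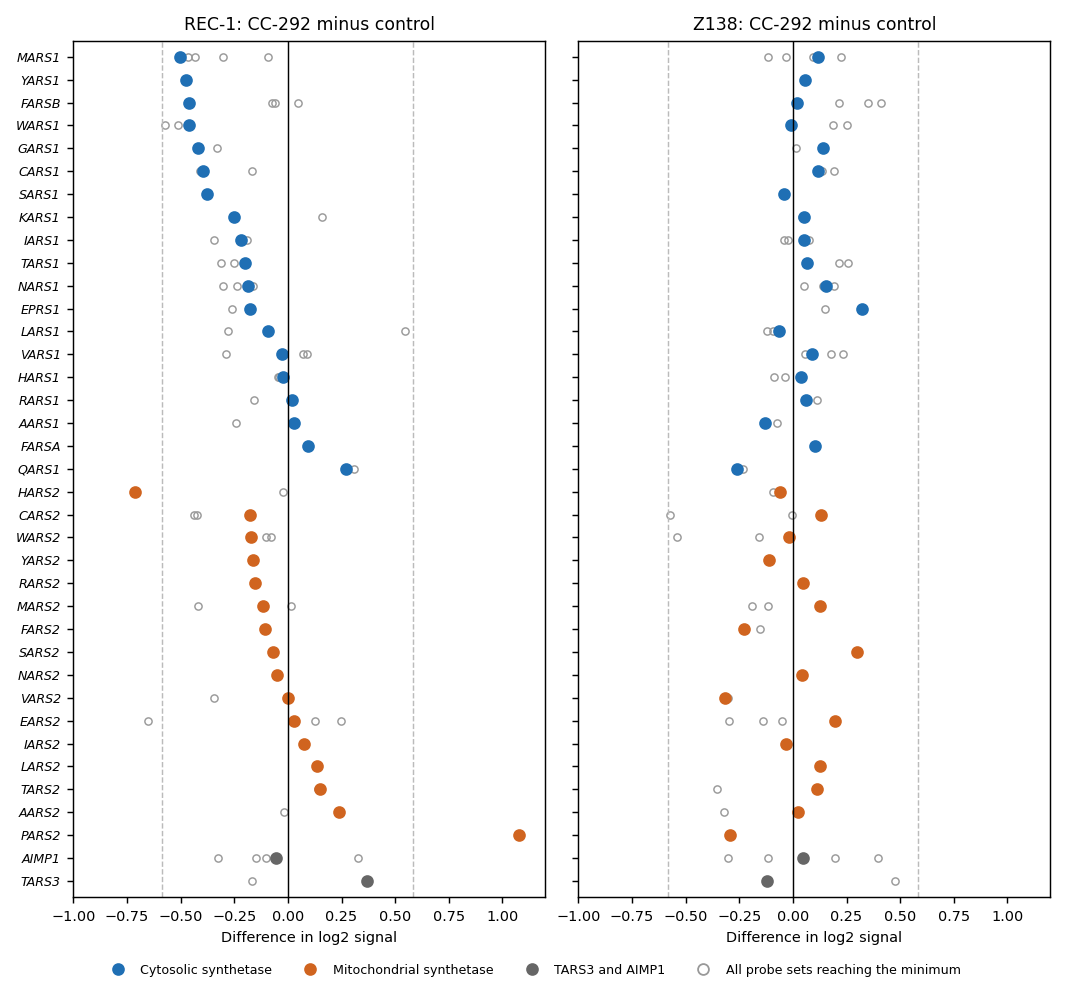
CC-292 minus control difference in log2 signal for each of 37 genes in REC-1 (left) and Z138 (right), ordered within class by the REC-1 value. Filled points are the brightest probe set, open circles all probe sets that reach the brightness minimum, and dashed lines mark 1.5-fold. In REC-1, 15 of 19 cytosolic genes lie left of 0, and in Z138 5 of 19 do.

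The lowest cytosolic gene in REC-1 was MARS1, the methionyl enzyme of the multisynthetase complex, which read 10.33 on the CC-292 array and 10.83 on the control array. Its difference was -0.50 (1.42-fold lower, SD 0.17 over 5 probe sets), and all 5 probe sets were below 0. YARS1, the tyrosyl enzyme, read 8.78 with CC-292 and 9.26 in the control, a difference of -0.47 on 1 probe set. WARS1 read 9.60 with CC-292 and 10.06 in the control, a difference of -0.46 (SD 0.06 over 3 probe sets), and all 3 probe sets lay between -0.57 and -0.46. The difference of WARS1 was several times the spread of its probe sets, and that of MARS1 varied more between them.

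FARSB, the beta subunit of the phenylalanyl enzyme, read 8.82 with CC-292 and 9.28 in the control, a difference of -0.46. The other 3 usable probe sets of FARSB lay between -0.07 and 0.05, so its mean was -0.14. The alpha subunit FARSA, which pairs with it in 1 enzyme, was at 0.09 on its only probe set. The low value of FARSB thus rests on 1 of its 4 usable probe sets (SD 0.22 over 4 probe sets).

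GARS1, the glycyl enzyme of both compartments, read 10.87 with CC-292 and 11.29 in the control, a difference of -0.42 (SD 0.06 over 2 probe sets). CARS1, the cysteinyl enzyme, read 7.73 with CC-292 and 8.13 in the control, a difference of -0.40 (SD 0.14 over 3 probe sets). SARS1, the seryl enzyme, was at -0.38 on 1 probe set. Smaller negative values were those of KARS1 at -0.25 (SD 0.29 over 2 probe sets), IARS1 at -0.22 (SD 0.07 over 4 probe sets), TARS1 at -0.20 (SD 0.05 over 3 probe sets), NARS1 at -0.19 (SD 0.06 over 4 probe sets) and EPRS1 at -0.18 (SD 0.06 over 2 probe sets). KARS1, which like GARS1 charges tRNA in both compartments, was below 0 on its brightest probe set and at 0.16 on the other.

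QARS1, the glutaminyl enzyme, had the highest cytosolic value in REC-1. It read 10.40 with CC-292 and 10.13 in the REC-1 control, a difference of 0.27 (SD 0.02 over 2 probe sets). Of the other cytosolic genes above 0, AARS1 was at 0.03, RARS1 at 0.02 and FARSA at 0.09. AARS1 was at -0.24 on its second probe set, and HARS1, VARS1 and LARS1 lay at -0.02, -0.03 and -0.09. The probe sets of VARS1 (SD 0.17 over 4) and of LARS1 (SD 0.43 over 3) lay on both sides of 0.

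Within the cytosolic class the known ATF4 targets were lower in 12 of 13 cases in REC-1, with a median of -0.22, against 57.8% of all genes. VARS1 and LARS1, which are among the 12, had probe sets on both sides of 0. The other 6 cytosolic genes (FARSA, FARSB, HARS1, KARS1, QARS1 and RARS1) were lower in 3 of 6 cases, with a median of 0.00. The difference between these groups was not tested. The 7 cytosolic genes that hold the core TGATGNAA ranged over -0.50 to 0.03 with a median of -0.22, and the 9 with a window that lacks it ranged over -0.46 to 0.27 with a median of -0.18. The ranges overlapped, and SARS1, WARS1 and EPRS1, which are known ATF4 targets, were below 0 without these letters in their windows.

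Among mitochondrial synthetases in REC-1 the outer values belonged to HARS2 and PARS2, and each rested on 1 probe set. HARS2, the histidyl enzyme, read 6.41 with CC-292 and 7.13 in the control, a difference of -0.71 (1.64-fold lower). Its second probe set was at -0.02 (SD 0.49 over 2 probe sets). PARS2, the prolyl enzyme, read 5.57 with CC-292 and 4.50 in the control, a difference of 1.08, but the control value lay below the brightness minimum of 4.63 so the exact size is not interpretable. The second probe set of PARS2, below that minimum on every array, was at 0.41.

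The other 14 mitochondrial genes lay between -0.18 and 0.24 in REC-1. The lowest were CARS2 at -0.18 (SD 0.15 over 3 probe sets), WARS2 at -0.17 (SD 0.05 over 3 probe sets) and YARS2 at -0.16. The highest were AARS2 at 0.24 (SD 0.18 over 2 probe sets), TARS2 at 0.15 (SD 0.01 over 2 probe sets) and LARS2 at 0.14. RARS2, MARS2, FARS2, SARS2 and NARS2 were at -0.15, -0.11, -0.11, -0.07 and -0.05, and VARS2, EARS2 and IARS2 were at 0.00, 0.03 and 0.07.

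HARS1 and HARS2 are a head-to-head pair whose transcription starts lie on opposite strands with 84 bases between them (chr5:140691371-140691454, GRCh38.p14). The stretch is shown because the genes share it while only HARS2 on its brightest probe set differed by 1.5-fold in REC-1, and the capitals mark the ETS core at either end.
HARS1 and HARS2, between the starts, plus strand: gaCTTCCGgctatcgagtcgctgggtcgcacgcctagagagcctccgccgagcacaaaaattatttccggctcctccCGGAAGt

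HARS1 was at -0.02 (SD 0.01 over 3 probe sets) in REC-1 and 0.04 (SD 0.06 over 3 probe sets) in Z138. On its second probe set HARS2 was at -0.02 in REC-1 and -0.09 in Z138, close to the values of HARS1.

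Pairs of enzymes for the same amino acid set the classes side by side. In REC-1 the cytosolic difference was below the mitochondrial one in 14 of 17 pairs, with a median of -0.23. FARS2 was paired with both FARSA and FARSB, and EPRS1 with both EARS2 and PARS2. The exceptions were histidine (HARS1 minus HARS2 0.69), phenylalanine by the alpha subunit (0.20) and arginine (0.17). In the other direction stood methionine (-0.39), phenylalanine by the beta subunit (-0.35) and threonine (-0.35). The beta-subunit value rests on 1 of the 4 usable probe sets of FARSB. The histidine value rests on the brightest probe set of HARS2, whose second was at -0.02. Proline read -1.26, but this gap rests on PARS2, whose REC-1 control value lay below the brightness minimum. In Z138 the cytosolic difference was lower in 6 of 17 pairs, with a median of 0.08.

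**Figure D2:**
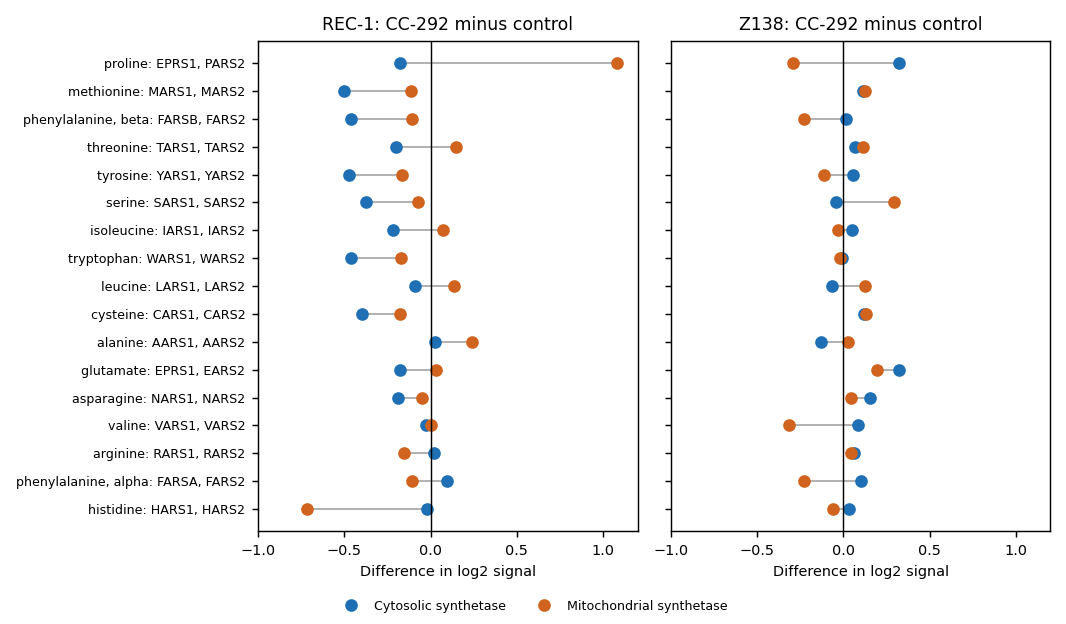
CC-292 minus control difference in log2 signal for the cytosolic (blue) and mitochondrial (orange) synthetase of each amino acid, in REC-1 (left) and Z138 (right). Lines join the enzymes of a pair. Blue lies left of orange in 14 of 17 pairs in REC-1 and in 6 of 17 in Z138.

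In Z138, cytosolic synthetase genes were slightly higher on the CC-292 array, with 14 of 19 above 0 and a median of 0.05. Mitochondrial genes had 9 of 16 above 0 and a median of 0.03. Of all genes 48.1% were below 0, with a median of 0.01. No synthetase gene differed by 1.5-fold, against 4.7% of all genes. The outer cytosolic values were those of EPRS1 and QARS1.

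EPRS1, the glutamyl-prolyl enzyme, read 11.04 on the Z138 CC-292 array and 10.71 on the control array, a difference of 0.32 (SD 0.12 over 2 probe sets). NARS1 was at 0.16 (SD 0.06 over 4 probe sets), GARS1 at 0.14 (SD 0.09 over 2 probe sets), CARS1 at 0.12 (SD 0.04 over 3 probe sets) and MARS1 at 0.12 (SD 0.13 over 5 probe sets). QARS1 read 10.49 with CC-292 and 10.75 in the control, a difference of -0.26 (SD 0.02 over 2 probe sets). AARS1 followed at -0.13 (SD 0.04 over 2 probe sets), LARS1 at -0.07 and SARS1 at -0.04. WARS1 was at -0.01 (SD 0.14 over 3 probe sets), with its other usable probe sets at 0.19 and 0.25. The remaining cytosolic values lay between 0.02 and 0.10.

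Mitochondrial values in Z138 spanned SARS2 at 0.30 on 1 probe set to VARS2, the valyl enzyme, at -0.32 (SD 0.01 over 2 probe sets). PARS2 was at -0.29 and FARS2 at -0.23 (SD 0.05 over 2 probe sets), while EARS2, MARS2 and CARS2 were at 0.19, 0.13 and 0.13. Every other usable probe set of EARS2, MARS2 and CARS2 was below 0. All 9 mitochondrial genes with a second usable probe set were below 0 on it in Z138, with a median of -0.19, although only 4 of the 9 had the same sign on both. For 16 cytosolic genes the second probe set had the same sign in 13 cases and a median of 0.10. In REC-1 the second probe sets were below 0 for 13 of 16 cytosolic genes (median -0.25) and 7 of 9 mitochondrial genes (median -0.08). Over all genes with a second usable probe set, 54.8% were below 0 on it in REC-1 and 46.0% in Z138.

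**Figure D3:**
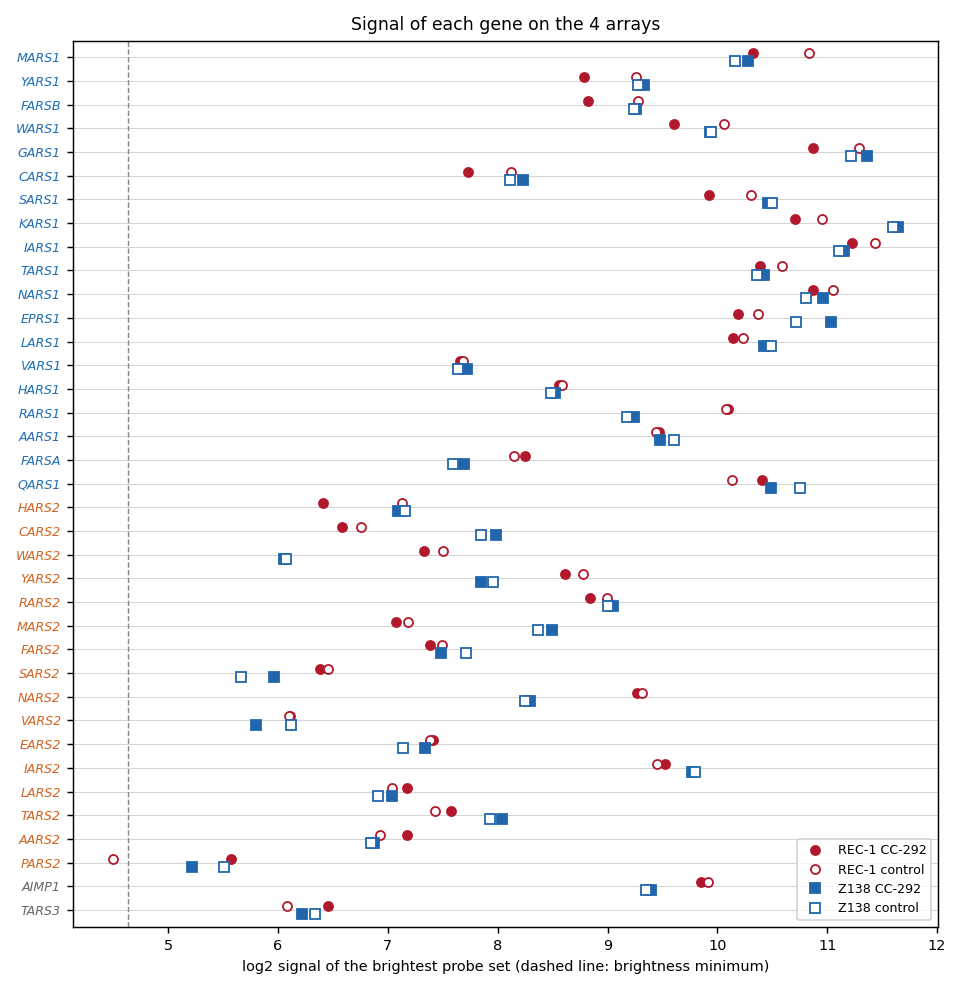
log2 signal of the brightest probe set of each gene on the 4 arrays (red circles REC-1, blue squares Z138, filled CC-292, open control), in the same gene order as the plot of differences. Signals of different genes come from different probes and are not comparable. For MARS1, YARS1, FARSB, WARS1 and GARS1 the filled red circle lies left of the open one, and the PARS2 control value in REC-1 lies below the brightness minimum.

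The difference of differences, REC-1 minus Z138, was below 0 for 17 of 19 cytosolic genes with a median of -0.30, and for 9 of 16 mitochondrial genes with a median of -0.07. In the deposited values 56.9% of all genes were below 0 with a median of -0.06. After quantile normalization 14 of 19 cytosolic genes were below 0, against 51.9% of all genes. After cyclic loess 13 of 19 were, against 49.1% of all genes. At least 1.5-fold was reached by 3 of 37 genes, MARS1, HARS2 and PARS2, against 16.5% of all genes. Opposite signs with at least 0.5 between the lines were found for 7 of 37 genes, against 18.1% of all genes, and for 6 of 37 on every usable probe set, against 11.2%. This contrast uses the same 4 arrays as the values above and is not a further measurement.

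Of 19 cytosolic genes 12 were lower in REC-1 and higher in Z138 (63.2%), and 5 of 16 mitochondrial genes were (31.2%), against 31.4% of all genes. MARS1 had a difference of differences of -0.62 (SD 0.28 over 5 probe sets), GARS1 of -0.56, YARS1 of -0.53, CARS1 of -0.51 and EPRS1 of -0.50. QARS1 ran the other way, higher in REC-1 and lower in Z138, at 0.53 (SD 0.01 over 2 probe sets). PARS2 did so at 1.37, with the low control value given above. The next values above 0 were those of TARS3 at 0.49 (SD 0.80 over 2 probe sets), VARS2 at 0.32 (SD 0.25 over 2 probe sets) and AARS2 at 0.21 (SD 0.06 over 2 probe sets), and HARS2 was at -0.65 (SD 0.51 over 2 probe sets).

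TARS3, a threonyl-tRNA synthetase paralogue of the cytosol, read 6.45 with CC-292 and 6.08 in the REC-1 control, a difference of 0.37, and 6.22 with CC-292 and 6.34 in the Z138 control, a difference of -0.12. Its second probe set had the opposite sign in both lines, at -0.17 and 0.47, so no direction can be given. AIMP1 was at -0.06 in REC-1 (SD 0.24 over 5 probe sets) and 0.05 in Z138 (SD 0.27 over 5 probe sets). The 8 measured genes of the multisynthetase complex had medians of -0.13 in REC-1 and 0.05 in Z138. Below 0 were 6 of 8 in REC-1 and 2 of 8 in Z138, against 57.8% and 48.1% of all genes. Within this complex MARS1 and QARS1 gave the outer values in REC-1, and EPRS1 and QARS1 in Z138.

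Between the untreated lines, MARS2 and CARS2 were lower and NARS2 higher in REC-1, each by at least 2-fold on its brightest probe set. For REC-1 control minus Z138 control the medians were 0.05 for cytosolic and -0.01 for mitochondrial genes. The median size of the difference was 0.23 and 0.42 in these classes, against 0.50 over all genes. At least 1.5-fold was reached by 4 of 19 cytosolic and 7 of 16 mitochondrial genes, against 43.9% of all genes, so the mitochondrial share lay at the background. Below 0 were 7 of 19 cytosolic and 9 of 16 mitochondrial genes, against 48.9% of all genes. The REC-1 and Z138 control arrays also enter the CC-292 differences, which are therefore not independent of these values.

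Of mitochondrial genes, WARS2 read 7.50 on the REC-1 control and 6.07 on the Z138 control array, a difference of 1.43 that was 0.84 as the mean of 3 probe sets (SD 0.53). NARS2, the asparaginyl enzyme, read 9.32 in REC-1 and 8.25 in Z138, a difference of 1.07 on 1 probe set. YARS2 and SARS2 were 0.82 and 0.79 higher in REC-1 on 1 probe set each. Lower in REC-1 were MARS2, with 7.19 in REC-1 and 8.36 in Z138 (-1.18, SD 0.33 over 3 probe sets), and CARS2, with 6.76 in REC-1 and 7.85 in Z138 (-1.10, SD 0.06 over 3 probe sets). All 3 probe sets of each of these genes were below 0. PARS2 was at -1.02, again with its dim REC-1 control value.

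Of cytosolic genes, RARS1, the arginyl enzyme of the complex, read 10.08 in REC-1 and 9.18 in Z138, a difference of 0.90 (SD 0.02 over 2 probe sets). MARS1 was at 0.67 (SD 0.33 over 5 probe sets). KARS1 read 10.95 in REC-1 and 11.60 in Z138, a difference of -0.65 (SD 0.09 over 2 probe sets), and QARS1 was at -0.62 (SD 0.11 over 2 probe sets). FARSA was at 0.56, IARS1 at 0.34 (SD 0.03 over 4 probe sets), EPRS1 at -0.34 (SD 0.01 over 2 probe sets) and LARS1 at -0.26 (SD 0.02 over 3 probe sets). AIMP1 was at 0.56 on its brightest probe set and -0.08 as the mean of 5. Between the enzymes for methionine, MARS1 minus MARS2 was 1.85, and for cysteine CARS1 minus CARS2 was 1.11. For tryptophan WARS1 minus WARS2 was -1.30, which rests on the brightest probe set of WARS2.

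**Figure D4:**
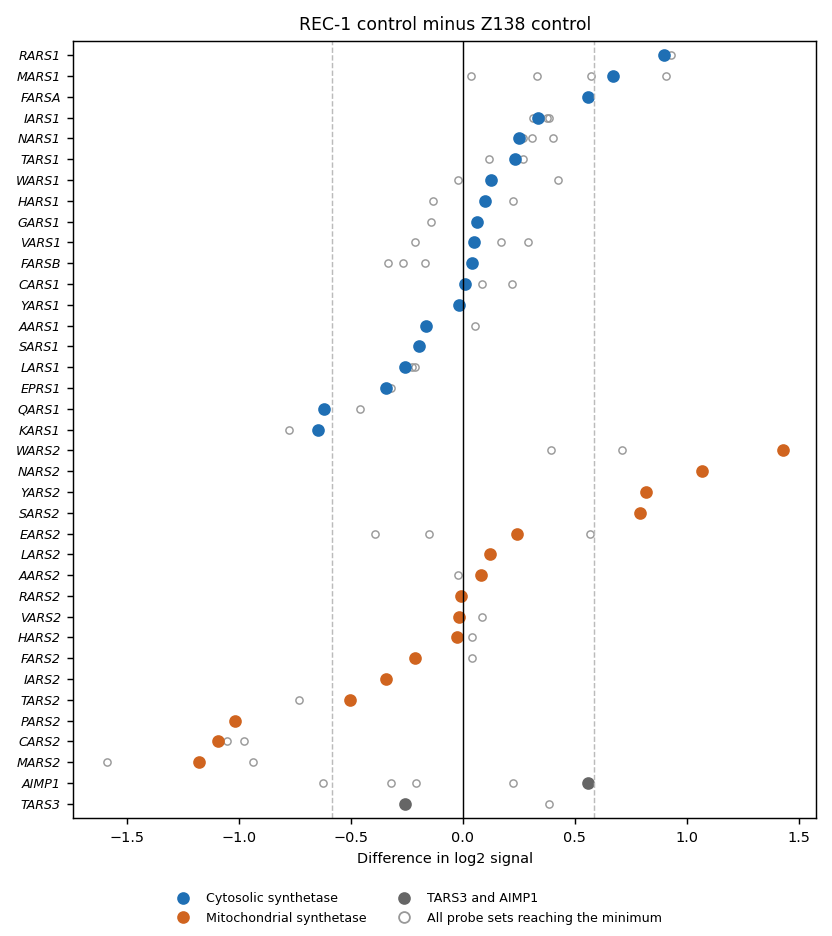
REC-1 control minus Z138 control difference in log2 signal for each gene, with filled points for the brightest probe set, open circles for all probe sets that reach the brightness minimum, and dashed lines at 1.5-fold. Mitochondrial genes reach from MARS2 at -1.18 to WARS2 at 1.43, and cytosolic genes from KARS1 at -0.65 to RARS1 at 0.90.

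Other genes of the pathway were read as lists. Over all genes 57.8% were below 0 in REC-1 and 48.1% in Z138, with medians of -0.05 and 0.01. Genes of ATF4-driven amino-acid supply and stress, which include amino-acid transporters and serine and asparagine synthesis, were read first. In REC-1 26 of 28 were below 0 with a median of -0.38, and in Z138 5 of 28 were below 0 with a median of 0.17. ATF4 itself, whose product is regulated mainly through translation, read 11.61 with CC-292 and 11.92 in the REC-1 control (-0.31), and was at 0.17 in Z138. In REC-1 the lowest were ATF3 at -1.91, CHAC1 at -0.96 and TRIB3 at -0.93, and the highest were VLDLR at 0.36, EIF4EBP1 at 0.30 and SLC1A4 at -0.09. In REC-1 neither array reached the brightness minimum for VLDLR and CTH, and of the 26 genes that reached it on both, 25 were below 0, with a median of -0.42. In Z138 the highest were the cystathionine enzyme CTH at 0.83, the cystine transporter SLC7A11 at 0.67 and VLDLR at 0.62. The lowest there were ATF3 at -0.25, CHAC1 at -0.23 and ALDH18A1 at -0.09. ATF3 on the REC-1 CC-292 array (4.72) and CTH on the Z138 control array (4.76) read close to the brightness minimum of 4.63.

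Interferon-induced genes were read beside WARS1, and 57.8% of all genes were below 0 in REC-1. In REC-1, of 11 measured genes 9 were above 0, with a median of 0.24, led by IFIT3 at 1.44, ISG15 at 0.89 and PARP9 at 0.42, whereas WARS1 was at -0.46. Lowest in that list were IFI35 at -0.26, UBE2L6 at -0.04 and APOL6 at 0.05. IFIT3 was below the brightness minimum on the REC-1 control array (5.44 with CC-292 and 3.998 in the control), and neither REC-1 array reached it for APOL6 and SOCS1. Of the 8 genes that reached it on both arrays 6 were above 0, with a median of 0.27. In Z138 8 of the 11 genes were below 0, against 48.1% of all genes, with a median of -0.01 (quartiles -0.30 and 0.04). Neither Z138 array reached the minimum for IFIT3 and IFI35, and of the 9 genes that reached it on both, 7 were below 0.

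A list of mitochondrial translation factors and RNA genes was lower in 14 of 16 cases in REC-1, with a median of -0.21. Besides translation factors it named genes of mitochondrial transcription and RNA handling: POLRMT, TFAM, PNPT1, LRPPRC, MTO1, GTPBP3 and TRMU. Translation factors alone were not counted. Mitochondrial ribosomal protein genes were lower in 66 of 77 cases, with a median of -0.12, against 57.8% of all genes. The mitochondrial synthetases, at -0.06, lay closer to the median of all genes than either. In the list of factors and RNA genes the lowest were MTRF1L at -0.32, PNPT1 at -0.31 and MTO1 at -0.30. The highest were the release factor gene MTRF1 at 0.75, MTIF3 at 0.22 and MTIF2 at -0.02. Of ribosomal protein genes, MRPL18, MRPL45 and MRPL28 were lowest, at -0.42, -0.37 and -0.33, and MRPL20, MRPS28 and MRPS33 highest, at 0.37, 0.26 and 0.19. In Z138 the medians of these lists were 0.00 and 0.01.

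Cytosolic translation factors had medians of -0.08 in REC-1 (18 of 27 below 0) and 0.01 in Z138. Over all genes 57.8% were below 0 in REC-1, with a median of -0.05. EIF2S1, the alpha subunit of the initiation factor whose phosphorylation starts the stress response, was at -0.44 in REC-1, with the release factor GSPT1 at -0.44 and EIF2B2 at -0.44. EIF4G1, EEF1G and EIF1AX were highest at 0.41, 0.28 and 0.24. Genes of tRNA transcription, maturation and export had medians of -0.09 in REC-1 and 0.01 in Z138. In REC-1 22 of 34 were below 0, near the share of all genes. In REC-1 the lowest were GTF3C4 at -0.60, POLR3G at -0.47 and TSEN15 at -0.40, and the highest were the methyltransferase subunit TRMT61A at 1.02, POLR3A at 0.60 and BDP1 at 0.40.

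Charging partners and proofreading genes had medians of -0.05 in REC-1 and -0.04 in Z138. Below 0 were 6 of 9 in each line, against 57.8% of all genes in REC-1 and 48.1% in Z138. QRSL1, GATB and GATC encode the amidotransferase that supplies mitochondrial glutaminyl-tRNA. In REC-1 QRSL1 was at 0.40, GATB at 0.08 and GATC at -0.30, with AARSD1 at -0.37, MTFMT at -0.10 and PSTK at 0.15 as the other outer values. In Z138 QRSL1 was at 0.05, GATB at -0.34 and GATC at -0.28. Between the controls QRSL1 was 3.44 higher in REC-1, against 1.43 for WARS2 on its brightest probe set.

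**Figure D5:**
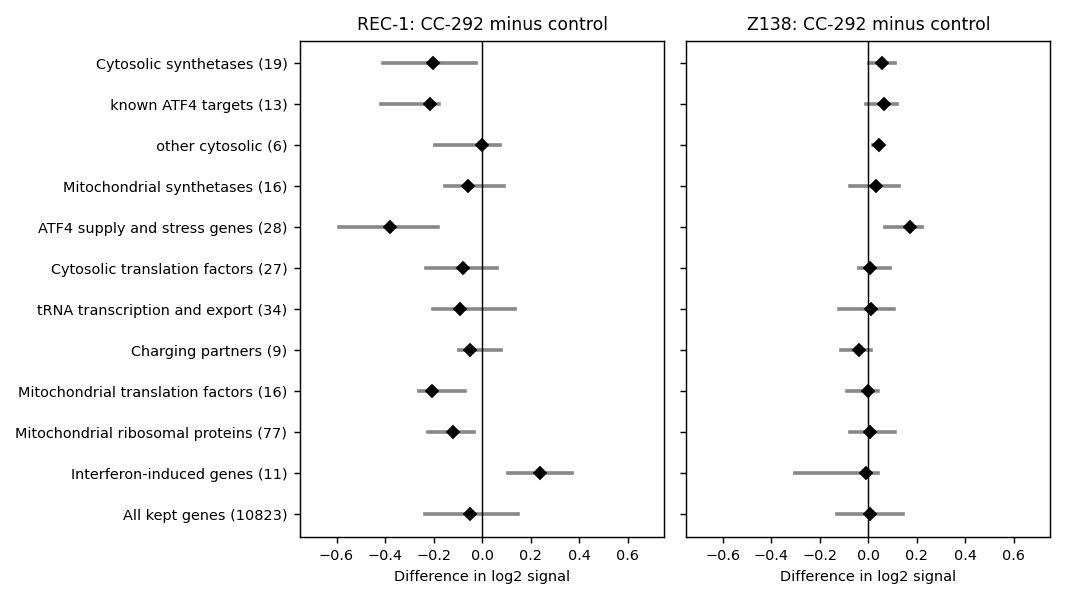
Median (diamond) and quartiles (grey line) of the CC-292 minus control difference in log2 signal for gene lists in REC-1 (left) and Z138 (right), with the number of measured genes in brackets. The row of mitochondrial translation factors also holds genes of mitochondrial transcription and RNA handling. In REC-1 the ATF4 supply and stress genes lie at -0.38, cytosolic synthetases at -0.20 and mitochondrial synthetases at -0.06, against -0.05 for all genes.

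The average effect of CC-292 over both lines was fitted with limma across all genes, with the cell line as a block. At an adjusted p under 0.05, 0 of 37 synthetase and scaffold genes and 0 of 10823 genes (0.0%) were called. At an unadjusted p under 0.05 there were 472 of all genes and 0 of the 37. The average differences of cytosolic and mitochondrial genes had medians of -0.08 and 0.00. Of 19 cytosolic genes 14 had opposite signs in the lines, which an average takes out. Over all genes 31.4% were lower in REC-1 and higher in Z138, and 21.6% were the reverse.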

How the data were processed

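The authors deposited log2 signals per probe set for 4 arrays. Per the submitters' processing notes they were made with RMA and Affymetrix Expression Console 1.1. No settings are stated in the labels, and values of 2.18 to 14.26 fit a log2 scale. RNA came from a Trizol extraction, of which 150 ng went into biotin-labelled cRNA, per the labels' protocols.

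Arrays were grouped by title. Of 49386 probe sets, 45259 had 1 gene symbol in GEO's platform table, 1327 had several and 2800 had no entry. Through Entrez identifiers 45178 matched RefSeq (GRCh38.p14), and no symbol changed. Of each gene the brightest probe set by mean was used, kept if its highest value reached the median of all values (4.63). Differences in a single line have no test. The average over lines was fitted with limma 3.58.1 in R 4.3.3, with Benjamini-Hochberg adjustment over 10823 genes. On simulated data of that fit and gene number, 33 of 100 genes set to 2-fold and 98 of 100 set to 4-fold were recovered. Beside these there were 15 false calls. Recovery of genes with opposite signs in the lines was not tested, so these figures do not describe such genes. Python 3.11.15, pandas 2.3.3, numpy 2.4.6 and matplotlib 3.10.9 were used otherwise.

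Members, lists, motifs and alternatives were chosen with earlier results of these data known. Named with values were the 5 highest and 5 lowest members per contrast, the 3 highest and 3 lowest genes of each other list (in REC-1, and for ATF4 genes also Z138), members with opposite signs in the lines that differed by at least 0.5, and 8 members by name, of which AIMP2 and EEF1E1 had no value. Other members and genes were named after their values were seen. The number of arrays, 1 per group, limits the precision.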

Additional observations from a re-analysis of the deposited data

Results flagged for a closer look

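For 6 genes the CC-292 difference had opposite signs in REC-1 and Z138 on every probe set that reached the brightness minimum, and differed by at least 0.5 between the lines. Of all 10823 genes 11.2% met the same rule. With 1 array per group this difference between the lines was not tested. Lower in REC-1 and higher in Z138 were GARS1, with a difference of differences of -0.56, YARS1 at -0.53, CARS1 at -0.51 and EPRS1 at -0.50. Higher in REC-1 and lower in Z138 were QARS1 at 0.53 and PARS2 at 1.37. YARS1 and PARS2 rest on 1 such probe set each, and the REC-1 control value of PARS2 lay below the minimum. MARS1, at -0.62, was left out because 2 of its 5 probe sets were below 0 in both lines. No group held enough arrays to look for a single outlying sample.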

How the results depend on the processing

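The cytosolic median stayed below 0 in REC-1 under all alternatives run (-0.25 to -0.14) and above 0 in Z138 (0.03 to 0.10). The mitochondrial median in REC-1 ran from -0.11 to -0.02. It was lowest at the 70th percentile of brightness, which kept 13 mitochondrial genes and left the cytosolic median at -0.20, so the classes lay closer together there. Quantile normalization and cyclic loess left 13 of 19 cytosolic genes below 0 in REC-1, against 15 as deposited, while the share of all genes below 0 was 53.4% and 51.1%. For the difference of differences these settings left 14 and 13 of 19 below 0, against 51.9% and 49.1% of all genes. The mitochondrial median in Z138 reversed to -0.0951 with all probe sets averaged, -0.0914 with the median difference and -0.1917 with second-brightest probe sets, an alternative chosen after seeing the data. That of the difference of differences reversed to 0.0106 with cyclic loess and 0.0771 with second-brightest probe sets, where HARS2 also reversed to 0.0715. Between controls it reversed to 0.0001 with the average and 0.0193 with the median difference. The causes were not tested.

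The number of genes past the threshold in REC-1 was 2 at 1.5-fold and 1 at 2-fold, at the 70th percentile of brightness, with averaged probe sets and for the median difference. It was 0 with second-brightest probe sets and 10 at the lowest fold tried. At that lowest fold it was 1 in Z138, 14 for the difference of differences and 17 between controls. At 2-fold it was 1 for the difference of differences and 5 between controls, where second-brightest probe sets also gave 5. The share of all genes was counted at 1.5-fold only. The counts at the lowest fold and at 2-fold therefore have no background, and nothing about the synthetases is read from them. WARS2 between controls was 0.603 with all probe sets averaged and 0.39 on its second-brightest. Limma called 0 genes under each alternative, with 13 at an unadjusted p under 0.05 without the cell-line block and 880 without a brightness minimum. The cell-line block pairs the arrays of each line, and no pairing by replicate number could be made because the labels carry none. Probes near background limit PARS2.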
